A study of Homo sapiens with 2 samples.

Results

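Ion channel genes were compared between 2 stable populations of Panc1, a human pancreatic ductal adenocarcinoma cell line. The mock population carried the vector alone, the syk population carried a wild-type form of the cytoplasmic tyrosine kinase SYK, and hygromycin selection was applied to both. The labels call each a stable cell population and do not say whether it is a clone, and mock cells are termed drug-resistant in the title. RNA of each population was hybridised to 1 Affymetrix array, so each value below is a single measurement with no replicate error, and population, RNA preparation and array cannot be told apart. The genes were chosen by symbol: every gene whose symbol starts with KCN, SCNN, CACN, CLCN, TRPC, TRPM or TRPV, or with SCN and a number, read by probe sets with exactly 1 gene symbol. That gave 168 of the 19775 genes on the array, with 355 probe sets (a probe set is a group of short probes that together read 1 transcript). By name and RefSeq annotation, 150 of them encode channel subunits and 18 do not, most of the latter being antisense or other noncoding RNAs of channel loci, such as KCNQ1-AS1, with a pseudogene (TRPC2) and a few proteins that share the letters, such as TRPC4AP.

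Channel proteins are built from pore-forming subunits, which pass a given ion, and auxiliary subunits, which set trafficking and gating. Potassium channels hold the membrane potential and so the driving force for calcium entry and for secretion. The epithelial sodium channel, ENaC, takes up sodium at the apical face of absorptive epithelia, voltage-gated calcium channels couple depolarisation to calcium entry, CLC proteins carry chloride across the plasma membrane or exchange chloride for protons in endosomes and lysosomes, and TRP channels are mostly cation channels opened by chemical, thermal or mechanical stimuli. Duct cells of the pancreas use several of these families for fluid and bicarbonate secretion.

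Most of the channel genes were dim. A gene was read by the probe set with the highest mean of both arrays, in log2 intensity, and it entered the counts where that mean reached 4.25, the median over all probe sets. Of the 168 genes, 68 (40.5%) passed, against 64.8% of all genes, and 63 of the 68 encode subunits. For 8 of the 68, the value of 1 array lay under 4.25, so that they passed through the brighter array. A second mark for dim signal was 4.77, the highest value among 27 probe sets against bacterial transcripts, here called the floor. On both arrays 44 of the 68 lay above it and 12 lay at or below it, and for the other 12 the floor fell between the values of both arrays. The 100 genes under the filter ranged from 2.35 to 4.59, none of them reached the floor, and their differences (syk minus mock) ran from -0.91 to 0.55 with a median of 0, so none passed 2-fold. All 9 voltage-gated sodium channel alpha subunits were in this group, as were 22 of the 35 pore-forming subunits of voltage-gated potassium channels.

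**Figure D1:**
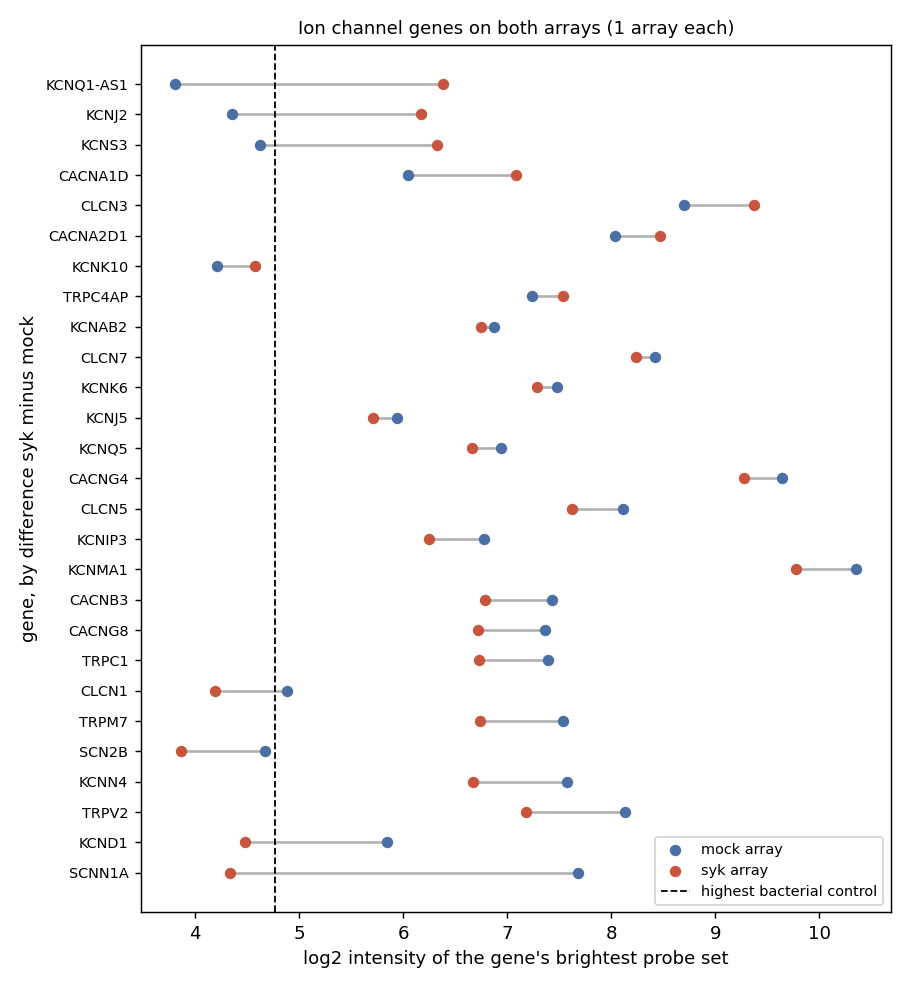
Log2 intensity of 27 ion channel genes (rows, ordered by difference) on mock (blue) and syk (red), 1 array each, with the highest bacterial control at 4.77 as a dashed line. SCNN1A has the widest gap with mock higher, and KCNQ1-AS1 the widest with syk higher.

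At least 2-fold differences were seen in 6 of the 68 genes (8.82%), against 7.26% of all 12814 genes past the same filter. The members' share is near that background and shows nothing particular to channel genes. Lower on the syk array were the ENaC alpha subunit SCNN1A and the potassium channel KCND1, 2 genes against a background of 3.65% in that direction. Higher were KCNQ1-AS1, the inward rectifier KCNJ2, the modulatory potassium channel subunit KCNS3 and the L-type calcium channel CACNA1D, 4 genes against a background of 3.61%. In 5 of the 6 genes 1 array lay at or below the floor. KCNQ1-AS1 passed the filter through the syk array alone, since its mock value of 3.81 lay under 4.25. Of the 44 genes above the floor on both arrays, 1 (CACNA1D) passed 2-fold, against 6.26% of all genes so placed. The median difference of the 68 genes was -0.11, against 0.01 for all genes, and 43 of them (63.2%) lay below 0, against 47.8%. As a guide to precision, the differences of probe sets of 1 gene had a pooled SD of 0.35 over 6028 genes, which covers the behaviour of probes and no variation between cultures.

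**Figure D2:**
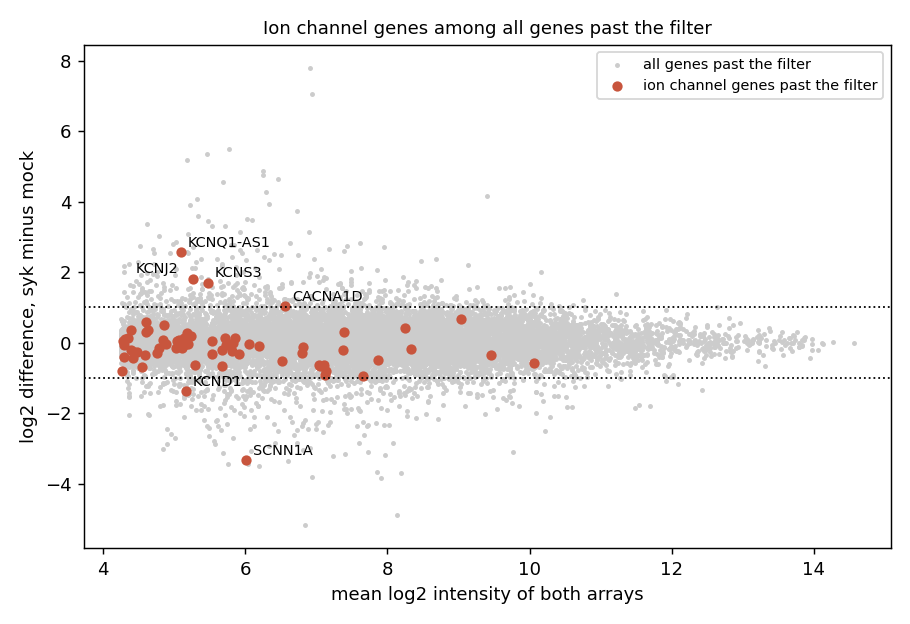
Log2 difference, syk minus mock, against the mean log2 intensity of both arrays for all 12814 genes past the filter (grey) and the 68 ion channel genes past it (red), with dotted lines at 2-fold. The 6 labelled channel genes lie outside the lines, and the other 62 lie within them.

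The windows before the annotated starts of the genes past 2-fold are shown because these are the channel genes whose RNA differed most. RefSeq's promoter table (GRCh38.p14) held 5 of the 6, SCNN1A being the gene without an entry. Each sequence below gives the 250 bases before the start, 5′ to 3′ on the gene's strand, with motif matches in capitals.
KCNJ2 (chr17:70169282-70169531, plus strand): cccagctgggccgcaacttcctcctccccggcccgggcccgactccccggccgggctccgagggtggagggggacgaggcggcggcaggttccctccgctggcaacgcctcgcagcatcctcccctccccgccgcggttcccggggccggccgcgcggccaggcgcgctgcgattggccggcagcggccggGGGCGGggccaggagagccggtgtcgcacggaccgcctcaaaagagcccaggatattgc
KCNS3 (chr2:17877597-17877846, plus strand): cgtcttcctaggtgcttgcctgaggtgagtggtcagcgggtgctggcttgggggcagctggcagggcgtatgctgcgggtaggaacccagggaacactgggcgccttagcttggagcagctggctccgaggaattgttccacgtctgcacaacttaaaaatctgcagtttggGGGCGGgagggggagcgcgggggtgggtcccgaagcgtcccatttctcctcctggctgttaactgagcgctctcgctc
CACNA1D (chr3:53494361-53494610, plus strand): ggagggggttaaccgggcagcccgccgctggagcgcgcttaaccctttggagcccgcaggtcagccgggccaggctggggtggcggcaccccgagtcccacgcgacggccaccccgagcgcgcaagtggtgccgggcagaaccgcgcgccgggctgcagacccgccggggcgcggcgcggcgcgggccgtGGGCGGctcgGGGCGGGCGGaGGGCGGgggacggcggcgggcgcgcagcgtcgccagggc
KCND1 (chrX:48971845-48972094, minus strand): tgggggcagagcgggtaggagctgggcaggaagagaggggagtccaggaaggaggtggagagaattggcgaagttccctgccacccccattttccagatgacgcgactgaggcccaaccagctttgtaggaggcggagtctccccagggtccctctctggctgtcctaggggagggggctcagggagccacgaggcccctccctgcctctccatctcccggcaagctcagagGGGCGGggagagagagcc
KCNQ1-AS1 (chr11:2861570-2861819, minus strand): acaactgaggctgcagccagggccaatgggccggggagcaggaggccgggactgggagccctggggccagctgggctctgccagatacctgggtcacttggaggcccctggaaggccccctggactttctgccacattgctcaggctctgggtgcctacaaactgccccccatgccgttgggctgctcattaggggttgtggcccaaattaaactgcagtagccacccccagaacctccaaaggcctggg
Both strands were searched for the GC box, spelled GGGCGG, the TATA box, spelled TATAAA, the E-box, spelled CACCTG, and the cyclic AMP response element, spelled TGACGTCA. The capitals mark GC box letters on either strand, the single motif that was found. The GC box letters occurred 4 times before CACNA1D, with overlapping matches counted, and 1 time each before KCNJ2, KCNS3 and KCND1, and they were not found before KCNQ1-AS1. In all 35116 windows of the same length, 42.6% held a GC box, 10.7% a TATA box, 17.5% an E-box and 1.65% a cyclic AMP response element. The other 3 motifs were not found in the 5 windows. The window of CACNA1D had 81.6% G and C with 41 CpG dinucleotides, that of KCNJ2 77.6% with 32, and that of KCND1 65.6% with 8. That of KCNQ1-AS1 had 64% with 3 and that of KCNS3 62.4% with 14, where the median window had 58% and 11. The KCNJ2 window overlaps the annotated antisense gene KCNJ2-AS1, which read 2.44 on mock and 2.62 on syk. These matches describe letters in the windows and were not tied to the array values.

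Among the ENaC subunits, SCNN1A stood apart. SCNN1A encodes the alpha subunit, which the channel needs to reach the apical membrane. Its brightest probe set read 7.68 on mock and 4.34 on syk. The lower value lies under the floor, so the transcript was at least 7.53-fold lower by this probe set. Its other probe sets did not show this: one read 5.69 on mock and 5.67 on syk, a difference of -0.02, and another read 5.21 on mock and differed by -0.21. The suffixes of those 2 (_x_at and _s_at) mark sets whose probes can match other or several transcripts, while the brightest set carries the plain suffix. With the median over probe sets, SCNN1A differed by -0.69 and did not pass 2-fold. The beta subunit SCNN1B read 3.75 on mock and 3.52 on syk, the gamma subunit SCNN1G 4.30 and 4.42, and the delta subunit SCNN1D 3.62 and 3.40. These 3 lay at or below the floor on both arrays, so SCNN1A was the single ENaC subunit with signal above it.

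Genes that process and regulate ENaC differed in both directions. The list was chosen with earlier results of these data known. Of its 25 listed symbols 22 were read by a probe set with exactly 1 gene symbol, and 16 passed the filter. SGK1 and TMPRSS2, 2 of the 16, were past 2-fold, one in each direction, where 7.26% of all genes were, and 14 were under 2-fold. The list's median was -0.03, against 0.01 over all genes. SGK1, the aldosterone- and glucocorticoid-induced kinase that keeps ENaC at the cell surface, read 8.04 on mock and 10.24 on syk in its single probe set, 4.57-fold higher. TMPRSS2, a membrane serine protease, read 6.80 and 5.20, 3.02-fold lower, and its 4 probe sets all lay below 0 (-1.60 to -0.10). SPINT2, an inhibitor of such proteases and the brightest gene of the list, read 11.01 and 10.83. The ubiquitin ligase NEDD4L, which removes ENaC from the membrane and is named after its value was seen, read 7.72 and 8.44, a difference of 0.72.

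Voltage-gated sodium channels gave little signal. Each of the 9 alpha subunits on the array was under the filter, with values from 2.56 to 4.55. Of the 3 beta subunits SCN2B passed, with 4.67 on mock and 3.86 on syk. Both values lie under the floor, so no fold is given, and its other probe sets differed by 0.10 and 0.06.

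Among voltage-gated calcium channels, 6 of 10 pore-forming alpha1 subunits passed the filter, with a median difference of 0.05. CACNA1D, the L-type channel Cav1.3 known from endocrine cells and pacemaker tissue, was the member past 2-fold. It read 6.04 on mock and 7.08 on syk, 2.05-fold higher. The other CACNA1D probe sets differed by less: 0.65 (5.33 and 5.98), 0.16 (6.16 and 6.32) and -0.04 (3.50 and 3.46, both under the floor). With the mean over probe sets CACNA1D differed by 0.45 and did not pass 2-fold. The T-type channels CACNA1G, CACNA1H and CACNA1I differed by 0.14, -0.32 and -0.04, and the P/Q-type CACNA1A by -0.04. CACNA1F read 4.32 and 4.90, with the mock value under the floor.

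Of the 15 auxiliary subunits of calcium channels 9 passed the filter, none was past 2-fold, and their median was -0.09. CACNA2D1, the alpha2delta subunit that gabapentin binds, read 8.04 on mock and 8.47 on syk. CACNB3, a cytoplasmic beta subunit that brings the pore to the membrane, read 7.43 and 6.79, 1.56-fold lower, and its second probe set read 6.84 and 5.64, a difference of -1.20. The gamma family members CACNG4 (9.64 and 9.28) and CACNG8 (7.37 and 6.72), which also serve as partners of AMPA receptors in neurons, were lower by 0.36 and 0.65 on the log2 scale. Among these named auxiliary subunits CACNA2D1 alone was higher on the syk array. The high CACNG4 signal rests on 1 probe set, which carries the suffix _r_at. The other CACNG4 probe sets were much dimmer and differed by -0.89 (5.19 and 4.30) and -0.32 (3.34 and 3.03, both under the floor). The dim CACNG8 probe sets differed by -0.14 and -0.08, with both arrays under the floor.

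**Figure D3:**
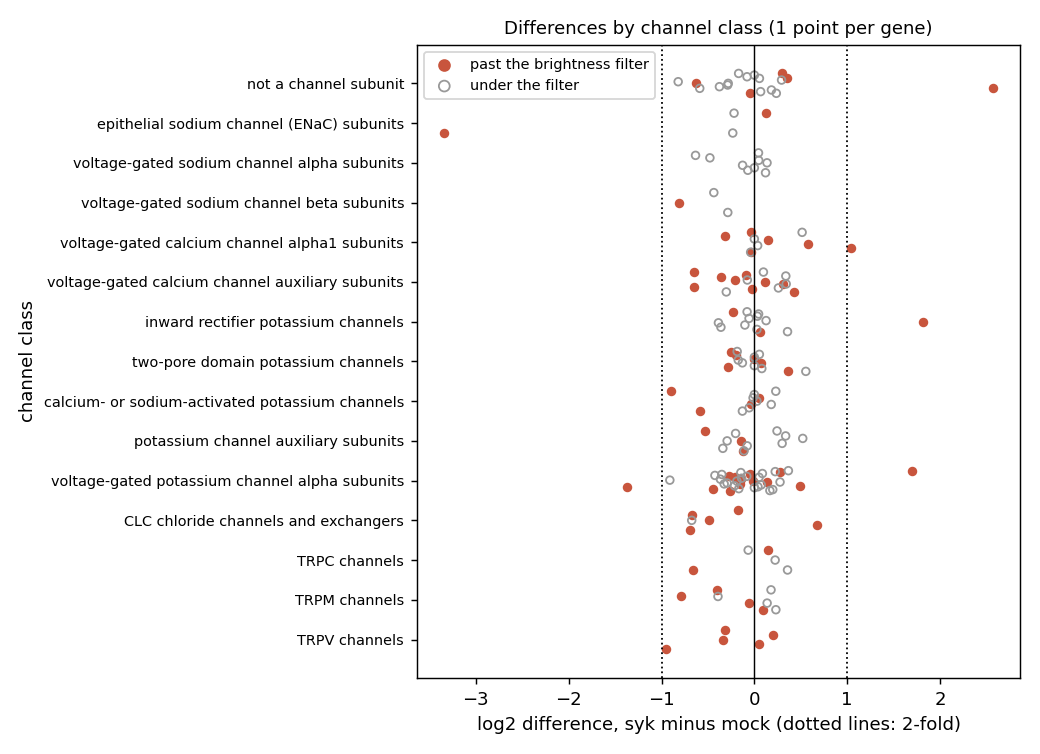
Log2 difference, syk minus mock, of each of the 168 genes by channel class, with filled points past the brightness filter, open points under it and dotted lines at 2-fold. The 6 points outside the lines fall in 5 classes, and voltage-gated potassium channels have 1 gene on each side.

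Voltage-gated potassium channels held 2 of the genes past 2-fold, in opposite directions. Of the 35 pore-forming subunits 13 passed the filter, with a median of -0.14. KCND1 (Kv4.1), which carries a fast-inactivating current, read 5.85 on mock and 4.48 on syk, at least 2.12-fold lower against the floor. KCNS3 (Kv9.3), which forms no current alone and changes that of Kv2 channels, read 4.62 and 6.32, at least 2.94-fold higher. Each of these was read by 1 probe set, so there is no second probe set to set beside it. KCNB2, one of the Kv2 channels, read 3.63 and 3.30 and was under the filter. KCNQ5, a subunit of the M-current, read 6.94 and 6.66, and KCNQ1, a cardiac and epithelial channel, 5.78 and 5.57. KCNH2, the hERG channel often studied in tumour cells, read 5.07 and 5.06. Of the 12 auxiliary subunits KCNAB2, KCNIP2 and KCNIP3 passed. KCNIP3, a calcium-binding Kv4 partner, read 6.78 and 6.25, a difference of -0.53, but its probe sets disagreed, with 0.19 in the one ranked next by brightness. KCNAB2, a cytoplasmic beta subunit, read 6.87 and 6.75, and its dimmer probe set differed by 0.54.

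The gene with the largest difference toward the syk array encodes no channel. KCNQ1-AS1, a long noncoding RNA named as antisense to KCNQ1, read 3.81 on mock and 6.38 on syk in its single probe set, at least 3.06-fold higher. KCNQ1-AS1 passed the filter through the syk array alone. The probe sets of other RNAs of the same locus on chromosome 11 showed no rise of that size. KCNQ1 differed by -0.21 in its brighter probe set and by 0.46 in its other one (5.24 and 5.69). KCNQ1OT1, the imprinted antisense transcript of this locus, had 5 probe sets between -0.19 and 0.35. Of these, 4 lay at or below the floor on both arrays, and the brightest read 4.45 on mock and 4.81 on syk. KCNQ1OT1 therefore gave little signal to compare. KCNQ1DN, another noncoding RNA there, differed by -0.63 (5.61 and 4.98). Which strand each probe set reads was not analysed here.

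Inward rectifiers had 3 of 13 genes past the filter. KCNJ2 (Kir2.1), which sets the resting potential in muscle and other cells, read 4.35 on mock and 6.18 on syk in its single probe set, at least 2.66-fold higher. KCNJ15 (5.01 and 5.06) and KCNJ5 (5.94 and 5.71) lay close to equal, and the other KCNJ5 probe sets, all under the floor on both arrays, ran from -0.16 to 0.42. K2P potassium channels, which carry background currents, had 6 of 14 genes past the filter, none past 2-fold, and a median of -0.10. KCNK6 read 7.48 and 7.28. KCNK10 read 4.21 and 4.58, both under the floor. KCNK3 (TASK-1) had the same deposited value, 5.83, on both arrays, as did 2189 of the 54675 probe sets, and its dimmer probe sets differed by -0.25 and -0.95.

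The calcium-activated potassium channels KCNMA1 and KCNN4, both in the top 25% on each array, were lower on the syk array without reaching 2-fold. These channels open when intracellular calcium rises, and in ducts they maintain the driving force for anion secretion. KCNMA1, the pore of the large-conductance BK channel, read 10.36 on mock and 9.77 on syk, a difference of -0.58. Its second probe set above the floor differed by 0.09 (6.68 and 6.77). KCNN4, the intermediate-conductance channel KCa3.1, read 7.57 and 6.67 in its single probe set, 1.87-fold lower. KCNN1 (5.51 and 5.56) and KCNMB3 (5.77 and 5.73) lay close to equal, and the other 7 genes of this class were under the filter.

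Of 6 CLC genes 5 passed the filter. Their median was -0.49, but -0.18 with both arrays set to the floor and -0.14 with the median over probe sets. Of the 5, 4 lay below 0, where 47.8% of all genes past the filter did. CLCN3, an endosomal chloride-proton exchanger, was the exception. It read 8.70 on mock and 9.37 on syk, 1.59-fold higher, and its 4 probe sets all lay above 0 (0.10 to 0.69). CLCN5, the endosomal exchanger of Dent disease, read 8.11 and 7.62, and its 5 probe sets all lay below 0 (-0.49 to -0.14). CLCN7, the lysosomal exchanger, read 8.42 and 8.24, with probe sets between -0.80 and -0.07. CLCN6 read 6.01 and 5.34. CLCN1, the muscle chloride channel, read 4.89 and 4.20 and passed the filter through the mock array alone. It differed by -0.12 once both arrays were set to the floor.

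TRP channels had 1 bright member in each family, and each was lower on the syk array without reaching 2-fold. TRPV2, a calcium-permeable channel of the plasma membrane and endosomes, read 8.13 on mock and 7.18 on syk, 1.93-fold lower, and its second probe set differed by -0.77 (4.99 and 4.22). TRPC1, linked to receptor- and store-operated calcium entry, read 7.39 and 6.73, 1.59-fold lower, with -0.50 in its second probe set above the floor (7.23 and 6.73). TRPM7, a magnesium- and zinc-permeable channel fused to a kinase, read 7.53 and 6.74, 1.73-fold lower by its brightest probe set. Its other probe sets above the floor on an array differed by -0.21 and 0.38, and with the median over probe sets TRPM7 turned to 0.36. The other TRP genes past the filter differed between -0.40 (TRPM8) and 0.20 (TRPV5), and TRPM8 lay under the floor on both arrays. TRPV6, an epithelial calcium channel named after its value was seen, read 5.69 and 5.37.

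**Figure D4:**
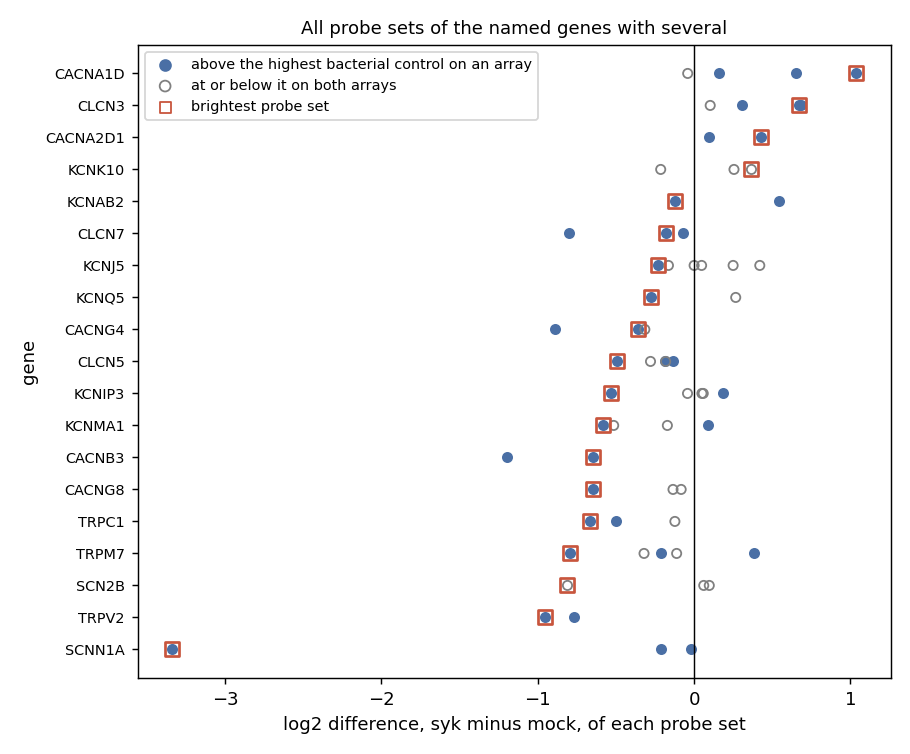
Log2 difference, syk minus mock, of every probe set of the 19 named genes that have several, with filled points above the highest bacterial control on at least 1 array, open points at or below it on both, and a red square on the brightest. The SCNN1A probe sets are far apart, and those of TRPV2, TRPC1, CACNB3 and CLCN5 all lie below 0.

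Taken by brightness, the channel genes with the strongest signal lay mostly below 0. Of the 16 genes with both values in the top 25% of all probe sets, 13 (81.3%) were lower on the syk array, against 46.5% of the 7527 genes so placed. Their median was -0.43, against 0.04. None of the 16 passed 2-fold, against a background of 4.62%. The genes above 0 were CLCN3, CACNA2D1 and TRPC4AP, the last of which is no channel. Of the 11 with several probe sets above the floor on an array, 6 had all of these below 0, 2 had all above 0, and KCNAB2, KCNMA1 and TRPM7 had both signs. With the median over probe sets, 10 of 15 lay below 0, with a median of -0.14. Channel genes share no transcript, but all values come from the same 2 arrays, so these 16 differences are not independent replicates of the comparison.

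Genes that work with channels were read from lists. These lists were chosen with earlier results of these data known, so their counts past 2-fold describe the listed genes and test nothing. Of 29 genes on the array from a list of calcium entry and handling, 25 passed the filter. By measured log2 differences of 1 or more, 1 was higher and 3 were lower, 4 genes of 25 where 7.26% of all genes were past that size. The list's median was -0.20, against 0.01 over all genes. ITPR2, a calcium release channel of the endoplasmic reticulum, read 6.75 on mock and 5.68 on syk, 2.11-fold lower, while its 4 probe sets ran from -1.38 to 0.09. ATP2A3, a calcium pump of the same membrane, read 6.43 and 5.16, 2.42-fold lower, while its 5 probe sets ran from -1.28 to 0.10. S100A10, which escorts TRPV5, TRPV6 and KCNK3 to the cell surface, was the brightest of the list, read 13.09 and 11.76, and was 2.51-fold lower, with -1.60 in its second probe set. The mechanosensitive channel PIEZO2 read 3.79 and 5.33, a measured difference of 1.54. PIEZO2 passed the filter through the syk array alone. Its mock value lies under the floor, so the bound is at least 1.47-fold higher, short of 2-fold, and its 6 probe sets all lay above 0 (0.12 to 1.54).

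Of 26 genes on the array from a list of channel partners and regulators, 18 passed. By measured log2 differences of 1 or more, 3 were higher and 1 was lower, 4 genes of 18 where 7.26% of all genes were past that size. The list's median was -0.04, against 0.01 over all genes. GEM, the brightest of the list and a small GTPase that binds calcium channel beta subunits and inhibits the channels, read 9.15 on mock and 11.16 on syk in its single probe set, 4.02-fold higher. KCTD12, an auxiliary subunit of GABA-B receptors, read 5.16 and 6.48, 2.50-fold higher, with 2.31 in its dimmer probe set. The membrane scaffold ANK2 read 7.27 and 8.51, 2.38-fold higher, and its 4 probe sets all lay above 0. CALHM2, a large-pore channel, read 5.73 and 3.97, a measured difference of -1.76. CALHM2 passed the filter through the mock array alone. Its syk value lies under the floor, so the bound is at least 1.95-fold lower, short of 2-fold, with -0.59 in its dimmer probe set.

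In the list of other ductal ion transport genes, 25 of 35 on the array passed. By measured log2 differences of 1 or more, 1 was higher and 0 were lower, where 3.61% and 3.65% of all genes were. The list's median was -0.08, against 0.01 over all genes. SLC4A4, the sodium bicarbonate cotransporter that loads duct cells with bicarbonate, read 3.35 and 5.63, a measured difference of 2.28. SLC4A4 passed the filter through the syk array alone. Its mock value lies under the floor, so the bound is at least 1.83-fold higher, short of 2-fold, and its other 4 probe sets, all under the floor on both arrays, differed by 0.02 to 0.52. CLIC1, the brightest of the list, read 12.50 and 12.19. CFTR, the chloride channel of pancreatic ducts, read 3.39 on both arrays, under the floor.

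Checks of the arrays bear on every value above. Median log2 intensity was 4.26 on mock and 4.24 on syk, and Pearson's r between the arrays was 0.98 over 54675 probe sets, which are no independent replicates. The ACTB control probe sets differed between 3′ and 5′ by 1.95 on mock and 2.37 on syk, and those of GAPDH by 0.19 and 0.32. Such differences are a sign of RNA or labelling quality, whose part in the channel differences was not tested. SYK itself gave no check of the labels, since its brightest probe set read 4.27 on mock and 4.73 on syk, both under the floor, and its other 3 differed by -0.27 to -0.07. Of 11 ductal epithelial markers on the array, 7 (mock) and 8 (syk) lay above the floor, with summed linear intensities of 16891 and 13832. Of the 8 ductal markers past the filter, 5 differed below 0 and 3 above it. KRT18 (13.34 and 13.12) was the brightest and so weighs most in the sums. KRT19 was 2.72-fold lower on the syk array, with -0.37 in its dimmer probe set, and MUC1 was 2.06-fold lower. SOX9 (11.02 and 11.37) and EPCAM (6.77 and 7.08) were higher, and CFTR, CA2 and SPP1 lay under the floor on both arrays. ONECUT2 was at least 1.69-fold higher by its brightest probe set, and its 5 probe sets ran from -0.32 to 1.42. The part of these markers in the channel differences was not tested. All 4 acinar, 6 endothelial and 5 immune markers on the array lay at or below the floor on both arrays. Endocrine markers had 1 of 8 above the floor on mock and 2 of 8 on syk, SYP (5.04 and 5.01) and ISL1 (5.16 on syk, at least 1.31-fold higher), and fibroblast markers had 2 of 8 and 1 of 8, led by COL1A1 (11.16 and 10.06, 2.13-fold lower).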

How the data were processed

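Total RNA of each Panc1 population was labelled as biotin cRNA and read on 1 expression array, and the deposited series table gives 1 log2 intensity per probe set and array. The authors summarised the arrays with RMA, per the submitters' processing notes, with no version or settings in the sources used here. RMA in general subtracts background, equalises the arrays' distributions by quantiles and summarises probes. The log2 scale was inferred from deposited values of 2.14 to 14.56. RMA compresses differences between dim probe sets.

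Gene names came from the platform's annotation, in which 41097 of 54675 probe sets had 1 symbol, 1801 several and 11777 were unnamed here. All 168 member symbols are current in RefSeq (GRCh38.p14). Differences (syk minus mock) were taken for each probe set in Python 3.11.15, numpy 2.4.6 and pandas 2.3.3. The brightest probe set stood for a gene, the filter was the 50th percentile of mean brightness, and 2-fold (an absolute log2 difference of 1) marked a gene as differing. These counts use the measured difference, also where 1 value lies under the floor. Where 1 of both values did not exceed the floor, the fold is a lower bound computed against it. With 1 array per group no test was made, and the number of arrays limits the precision. Probe sets differ in how strongly they bind, so "brightest" refers to signal, which was used to choose probe sets and genes to name and was summed over markers, and does not rank RNA amounts between genes. The calculation was checked on simulated data with large shifts, equal over the probe sets of a gene, and little noise. That checks the counting alone and says nothing on precision, disagreeing probe sets or values near the floor.

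Genes named are those past 2-fold, the brightest and the most different of each class, those bright on both arrays, and from the partner lists those past 2-fold and the brightest. Names outside this rule serve as neighbours in the same class or locus, or were chosen after their values were seen. Members, lists and rules were chosen with earlier results of these data known, and the classes of KCNIP1, KCNIP2, KCNIP3, KCNIP4, KCNQ1DN, TRPC5OS and TRPC2 were corrected after the values had been seen. Of the promoter table's 35116 windows, 2700 overlapping pairs on opposite strands were compared, and all were reverse complements.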

Additional observations from a re-analysis of the deposited data

How the results depend on the processing

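The counts of channel genes at least 2-fold higher (4) or lower (2) were recomputed under 9 listed alternatives and 1 chosen after seeing the data, which counts channel subunits alone. The count of higher genes stayed within 1.5 times under 9 of the 10, and it was 0 with the filter at the 75th percentile. The count of lower genes was 0 with that filter and 1 with the median over probe sets, where SCNN1A fell short of 2-fold. With that filter 16 members are left, and the genes past 2-fold are not among them. Channel subunits alone gave 3 higher and 2 lower. The median over members lay between -0.43 and -0.02 under the 10 alternatives and so kept its sign. Among the values of the named genes, 200 of 223 moved by less than 0.35, the SD between probe sets of a gene, and 23 moved by more. Many of the 200 could not move, so this share is no measure of robustness. A changed filter decides which genes are counted and leaves a gene's value as it is. Flooring leaves genes above the floor unchanged, and the mean and median over probe sets leave genes with 1 probe set unchanged. CACNA1D was under 2-fold with the mean (0.45) and median (0.47) over probe sets, and TRPM7 turned to 0.36 with the median and 0.38 with _at probe sets alone. KCNIP3, KCNJ5 and KCNAB2 also changed sign under some choice of probe sets. Over all genes, the 930 past 2-fold became 562 with the mean over probe sets and 486 with the stricter brightness filter. Of 120 class medians 17 moved by more than 0.35. Those of voltage-gated and auxiliary potassium channel subunits, of calcium channel alpha1 subunits and of the genes that are no subunit changed sign by less, while those of TRPC (0.14 with no filter), TRPM (0.22 with the median over probe sets) and TRPV (0.05 with _at probe sets alone) changed sign. No paired analysis was possible because each group has 1 array. The number of arrays and the signal over background limit these results: 24 of the 68 genes had at least 1 array at or below the floor, and without replicates no difference can be set against the spread between cultures.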

Other observations

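Probe sets that the platform annotation gives to several genes were left out of the comparisons, and 7 of them name a channel gene among others. They were the sets shared by KCNA6 and GALNT8, by KCNJ12 and KCNJ18, by TRPV1 and SHPK, and by KCNRG and TRIM13. Their differences ran from -0.55 to 0.37 and none passed 2-fold. The set shared by KCNA6 and GALNT8 read 5.04 on mock and 4.49 on syk and was the single one above the floor on an array.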
